A study of Drosophila melanogaster with 4 samples.

Results

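The sequences nearest the centromeres, the heterochromatic scaffolds and the fourth chromosome were examined for H3K18ac, the acetylation of lysine 18 on histone H3, in wild-type Oregon-R Drosophila melanogaster embryos aged 14 to 16 h. They were taken as 10-kb windows over the last 2 Mb of the 2L, 3L and X sequences, the first 2 Mb of 3R, all of the fourth chromosome and the scaffolds 2LHet, 3LHet, 3RHet and XHet, on FlyBase r5. These amounted to 1502 of the 16878 windows of all sequences named in the file headers. Membership rested on position alone and not on the mark, but these sequences were chosen with earlier results of these data known. Both ChIP libraries and both inputs came from embryos of the same strain, genotype and age, fixed in 1.8% formaldehyde, and no treatment set any group apart. Chromatin came from whole embryos, so each library averages over all their cell types. The labels call the antibody lot new and give the inputs the same replicate numbers as the ChIP libraries. Each ChIP replicate has a list of enriched regions, called clusters here, with the authors' score for each cluster, and a combined list covers the set of replicates.

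Pericentric heterochromatin is the compact, repeat-rich chromatin that flanks centromeres. It carries methylated lysine 9 of histone H3 bound by the protein HP1, and in flies it also holds some essential genes that are active there. The fourth chromosome, a small one, is unusual because active genes lie among HP1-bound repeats along much of its length. H3K18ac marks active promoters and enhancers, and in flies the acetyltransferase that writes it is Nejire, the homologue of CBP.

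Replicate 1 held 4370 clusters, replicate 2 held 4910 and the combined list held 7536. Read depth was unknown for every library, and neither mappability nor the gaps of the assembly were measured, so a window without a cluster does not show that the mark was absent. Repeats that reads cannot be placed in and a true lack of the mark cannot be told apart here. With 2 replicates an exact two-sided paired permutation test cannot give p below 0.5, so differences are given as values per replicate without a test, and nothing below is shown to be particular to these sequences. The labels do not say whether separate embryo collections were used, and the replicate spread can be technical in part or whole.

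A smaller share of these windows held clusters than of all windows of the series, and the 3R end had a larger one. Over all sequences, 20.3% of windows held at least 1 base of a cluster in both replicates, and 37.4% did in the combined list. Among the 1502 windows these shares were 11.5% (173 windows) in both replicates and 24.7% in the combined list. No cluster of any list reached 1127 of the windows. The whole series includes long unplaced sequences, and on the 6 major arms alone 28.2% of windows held bases of both replicates and 51.9% held bases of the combined list.

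The 3R end held the largest share of such windows and the scaffolds small ones. Bases of both replicates lay in 72 of 200 windows of the 3R end (36.0%), 25 of 136 windows of the fourth chromosome (18.4%), 30 of 200 of the 2L end (15.0%), 22 of 200 of the 3L end (11.0%) and 9 of 200 of the X end (4.50%). On the scaffolds they were 2 of 37 windows on 2LHet (5.41%, above the X end), 8 of 256 on 3LHet (3.12%), 5 of 252 on 3RHet (1.98%) and none of 21 on XHet. Only the 3R end lay above the share of the whole series. Counted in the combined list, the windows kept the 3R end first (55.0%) but put the fourth chromosome at 51.5%, close behind it, and XHet at 28.6%.

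**Figure D1:**
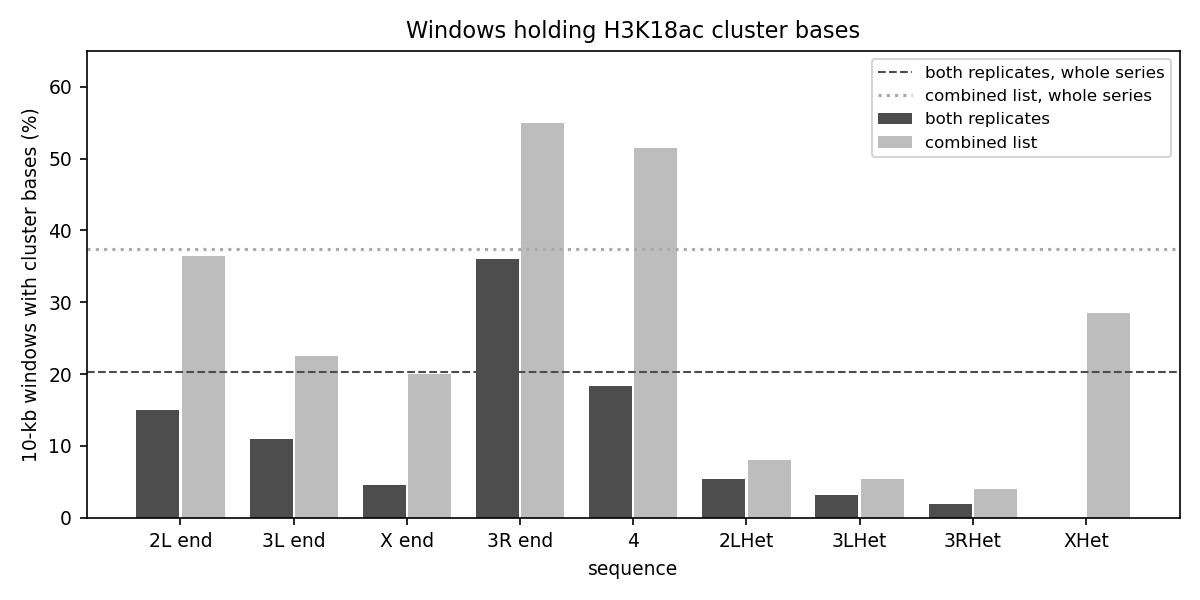
Bars give the percent of 10-kb windows with at least 1 base of a cluster in both replicates (dark) or in the combined list (light), for each arm end, the fourth chromosome and each scaffold. Dashed and dotted lines give the same shares over the whole series, 20.3% and 37.4%; the 3R end is the single dark bar above its line.

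The replicates placed their bases in the same windows to differing degrees. Across the 1502 windows Pearson's r between the covered bases of replicate 1 and replicate 2 was 0.90, as a description over neighbouring windows that share libraries. The 1127 windows without a cluster of any list enter this r as joint zeros. The r was 0.96 on the 3R end, 0.86 on the 3L and X ends, 0.79 on the 2L end and 0.74 on the fourth chromosome. On the scaffolds, where few windows held bases, it was 0.94 on 2LHet, 0.85 on 3RHet, 0.77 on 3LHet and -0.05 on XHet.

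The first comparison set the proximal 2 Mb of each arm against the rest of the same arm in the same list. Clusters took up 2.18% of the X end in replicate 1 and 2.31% in replicate 2, while the rest of X was covered to 13.1% and 11.9%. The 3L end was covered to 3.33% and 2.79%, against 17.9% and 15.6% for the rest of 3L. The 2L end was covered to 6.48% and 5.72%, against 14.5% and 13.4%. In all these 3 arms both replicates lay lower at the end than in the rest, and the 2 sets of values did not overlap.

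The 3R end went the other way. Its covered share was 18.4% in replicate 1 and 17.9% in replicate 2, above the 13.2% of the rest of 3R in each replicate. The ratio of the end to the rest was 1.37 ± 0.0255 (SD, n = 2) on 3R, 0.438 ± 0.0144 on 2L, 0.182 ± 0.00516 on 3L and 0.181 ± 0.0200 on X. Without 200 kb described below, at 800 to 1000 kb from its start, the ratio on 3R was 0.955. In the combined list the ratios were 1.20 on 3R, 0.545 on 2L, 0.224 on 3L and 0.260 on X. That list came from the same libraries, so its order is not separate evidence.

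**Figure D2:**
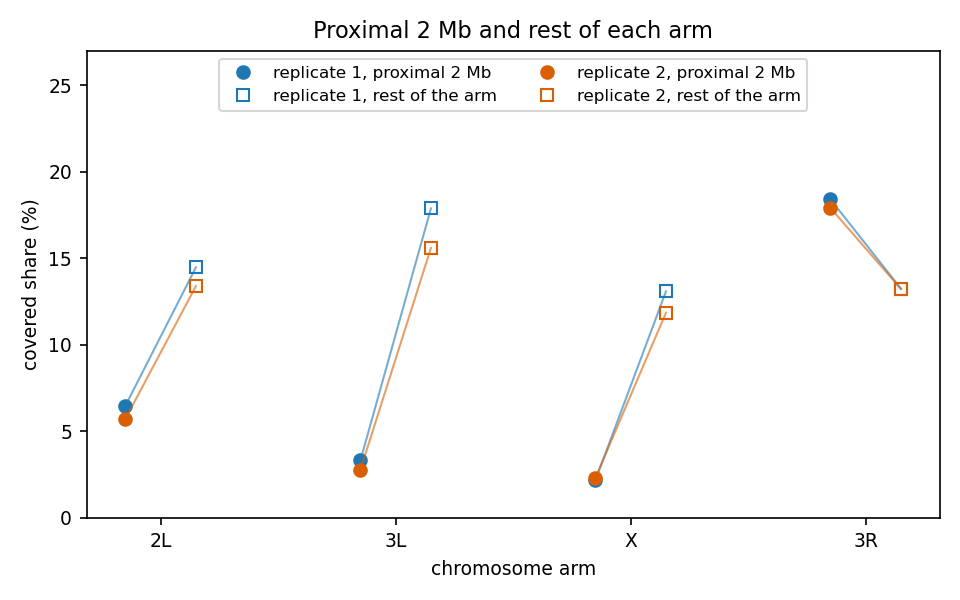
Filled circles give the covered share (%) of the proximal 2 Mb and open squares that of the rest of the arm, joined within each replicate. Lines climb on 2L, 3L and X and descend on 3R, where the ends stood at 18.4% and 17.9% and the rest at 13.2% in both replicates.

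Other stretches of equal length give a scale for these shares. The 5 large arms, 2R included, were divided from their proximal ends into 57 stretches of 2 Mb. By the mean of both replicates the X end was the least covered of the 57 and the 3L end the second, and the 2L end ranked 4 from the bottom. The proximal 2 Mb of 2R, not among the sequences described here, ranked 3 from the bottom, covered to 3.90% and 4.53%. The 3R end ranked 11 from the top. Stretches of 100 kb without a cluster in either replicate made up 12.1% of the 1189 on these arms. They numbered 11 of 20 on the X end (55.0%), 10 of 20 on the 3L end (50.0%), 3 of 20 on the 2L end (15.0%) and 1 of 20 on the 3R end (5.00%).

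Coverage toward the centromere followed a different course on each arm. The fall-off distance was defined as the smallest distance from the end of the sequence at which the next 200 kb reached 50% of the covered share of the arm beyond its proximal 2 Mb. Distances are counted from the end of the arm sequence, since the centromere itself lies beyond it. On 3L the distance was 1510 kb in replicate 1, 1490 kb in replicate 2 and 1480 kb in the combined list. On 2L it was 960 kb, 990 kb and 680 kb. On 3R it was 0 kb in every list, as the first 200 kb were already covered to 13.3% and 13.0%.

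On 3L little was covered inside this distance. From the end of the sequence to the fall-off position, base 23033557 in replicate 1 and 23053557 in replicate 2, 1.55% and 1.39% of bases were covered. The proximal 500 kb of 3L were covered to 0.434% and 0.406%, the next 500 kb to 2.10% and 1.26%, and those at 1000 to 1500 kb to 2.14% and 2.46%. At 1500 to 2000 kb the shares were 8.64% and 7.02%, and at 2000 to 2500 kb they were 30.5% and 29.6%. These shares were higher with each step, but at 2500 to 3000 kb they were 6.19% and 5.67%. Single stretches of 100 kb varied: 1400 to 1500 kb was covered to 6.37% and 5.44%, while 1500 to 1600 kb and 1900 to 2000 kb held no cluster of either replicate.

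On the 2L end coverage over 500 kb was higher with distance. Its proximal 500 kb were covered to 1.09% in replicate 1 and 3.23% in replicate 2, followed by 3.20% and 3.86%, then 8.88% and 5.25%, and 12.8% and 10.6% at 1500 to 2000 kb. Within it, coverage came in separate bursts. The 100 kb at 1100 to 1200 kb from the end were covered to 28.2% and 15.9%, those at 1700 to 1800 kb to 20.3% and 20.1%, and those at 1900 to 2000 kb to 35.8% and 28.4%, while 1500 to 1600 kb held no cluster of any list. In the proximal 100 kb replicate 1 had no cluster and replicate 2 covered 4.49%.

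On X no single edge could be drawn. The rule returned 0 kb in all 3 lists, because 100 to 200 kb from the end was covered to 17.3% and 16.7%, above the 13.1% and 11.9% of the rest of X. Coverage then stayed low farther out. It was 1.22% and 1.62% at 500 to 1000 kb, 3.15% and 3.01% at 1000 to 1500 kb, and 0.542% and 0% at 1500 to 2000 kb. With a running stretch of 500 kb in place of 200 kb the distance on X became 2040 kb as the mean of both replicates. From 2000 to 2500 kb the shares were 5.31% and 6.68%, and from 3000 to 3500 kb they were 24.6% and 24.1%. The low stretch on X thus ran beyond the 2 Mb examined, with a well covered patch near its inner end.

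**Figure D3:**
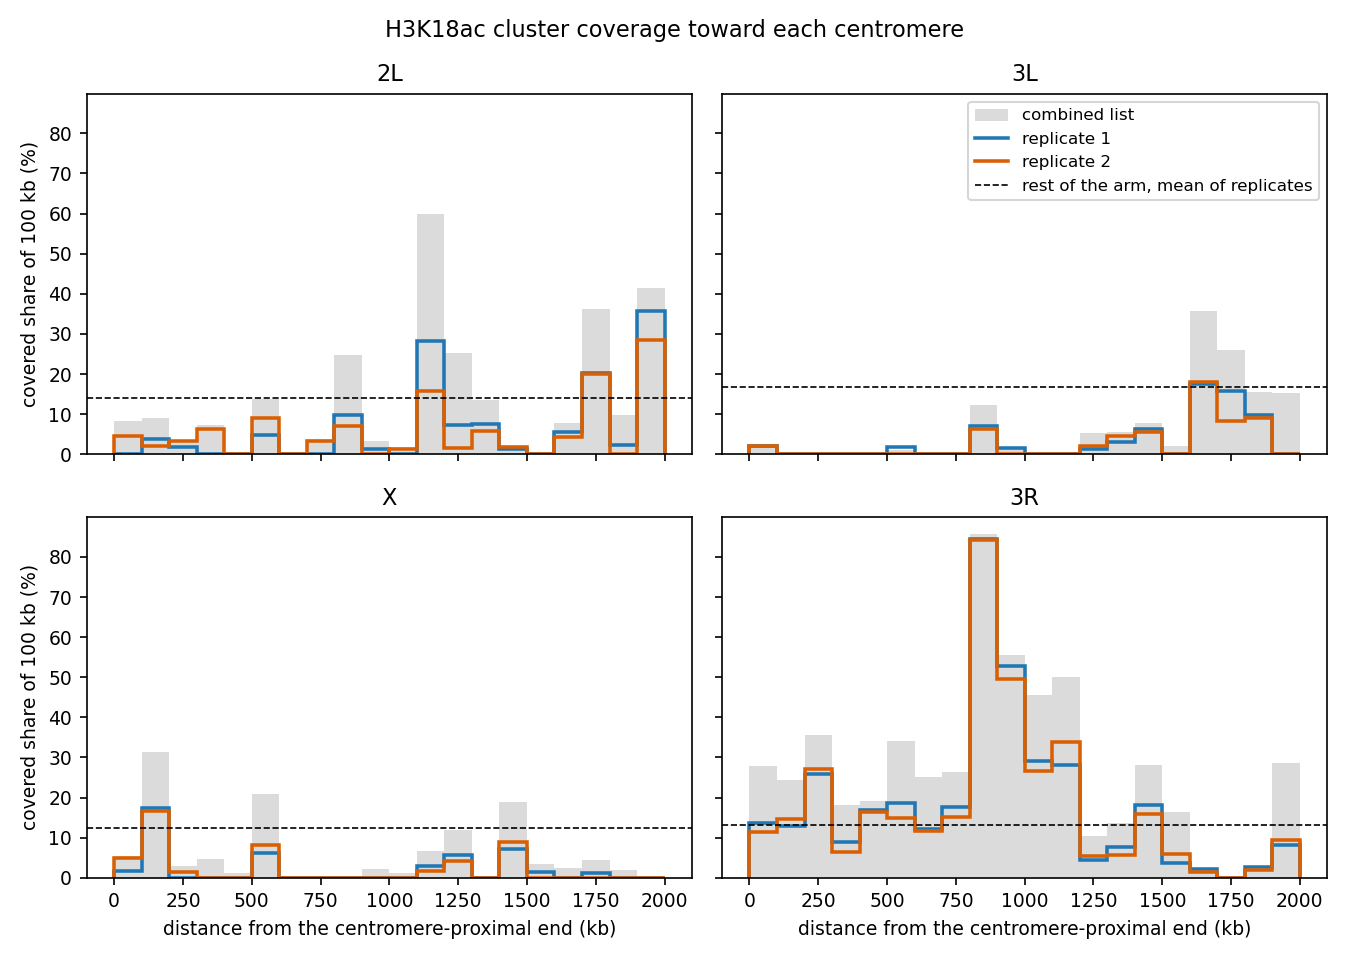
Covered share (%) of successive 100-kb stretches against distance (kb) from the centromere-proximal end of 2L, 3L, X and 3R, for replicate 1 (blue), replicate 2 (orange) and the combined list (grey), with the mean of the rest of the arm dashed. On 3L no stretch within 1500 kb exceeds 7.16% in a replicate, X has a patch at 100 to 200 kb, and 3R reaches 84.5% and 84.2% at 800 to 900 kb.

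On 3R, 1 broad domain region held a large part of the coverage. The 100 kb at 800 to 900 kb from the start had a covered share of 84.5% in replicate 1 and of 84.2% in replicate 2, the highest of the 1189 stretches of 100 kb in replicate 2 and the 7th highest in replicate 1. The next 100 kb were covered to 52.9% and 49.5%. Together these 200 kb held 37.3% of the covered bases of the 3R end in each replicate. Without them the 3R end was covered to 12.8% and 12.5%, or 12.6% ± 0.248 (SD, n = 2), and the ratio to the rest of 3R was 0.955 in place of 1.37. Leaving out these 200 kb, a choice made after their values were seen, thus removed the excess of the 3R end as a whole. The rest of 3R kept its own broad islands, up to 75041 bp, so the comparison was uneven. The pieces at 0 to 500 kb (15.7% and 15.2%) and 1000 to 1500 kb (17.5% in both) lay above the 13.2% of the rest. The piece at 1500 to 2000 kb (3.33% and 3.79%) lay below it. Without the 200 kb, the 12.6% of the 3R end lay above the shares of the 2L, 3L and X ends.

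Coverage on 3R varied with distance. It was 15.7% and 15.2% in the first 500 kb, 37.1% and 35.1% in the second, 17.5% in both replicates in the third and 3.33% and 3.79% in the fourth. No list had a cluster from 1700 to 1800 kb. Beyond the examined 2 Mb, 2000 to 2500 kb was covered to 17.7% and 16.6%, above the 13.2% of the rest of 3R. Farther still, 2500 to 3000 kb was covered to 11.4% and 9.19%, and 3000 to 3500 kb to 1.52% and 2.66%. The low values on 3R thus lay away from the end of the sequence, whereas on 3L they lay at it.

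The longest stretches without a cluster in either replicate were longer on X and 3L than on 2L and 3R. Counted from the proximal end of the sequence, they began at 13.9 kb on 3L, 577.43 kb on X, 1438.7 kb on 2L and 1531.4 kb on 3R. On X such a stretch ran from 21247648 to 21845396 (597.75 kb), and 5 combined clusters covered 0.857% of it. On 3L it ran from 24022977 to 24529638 (506.66 kb). On 2L the longest was 211.93 kb, from 21360929 to 21572862, and on 3R it was 154.71 kb, from 1531450 to 1686155. The stretch on X took up 29.9% of the 2 Mb examined there, and that on 3R 7.74%.

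Islands were defined as chains of clusters of both replicates joined by overlaps of at least 1 bp. In all, 138 islands were found, and each overlapped a combined cluster. Over the whole series 4311 of 4370 clusters of replicate 1 and 4870 of 4910 of replicate 2 overlapped one too. The combined list came from the same libraries, so this overlap is not separate evidence. The 3R end had 51, the 2L end and the fourth chromosome 23 each, the 3L end 18, the X end 9 and the scaffolds 14. Per Mb this came to 25.5 on the 3R end, 17.0 on the fourth chromosome, 11.5 on the 2L end, 9.00 on the 3L end, 4.50 on the X end and 2.48 on the scaffolds. The rest of the arms held 21.1 per Mb on 2L, 24.0 on 3L, 21.2 on X and 19.9 on 3R.

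Islands of all 4 arm ends had a lower median length than those of the rest of their arm. Their median distance to the nearest other island was larger, although the 3R end held more islands per Mb than its rest (25.5 against 19.9). The median length was 3228 bp on 2L, 2402 bp on 3L and 3006 bp on X and 3573 bp on 3R, against 3984 bp, 4136.5 bp, 3809 bp and 3999.5 bp in the rest of these arms. The median distance to the nearest other island was 7.52 kb on 2L, 14.5 kb on 3L, 17.5 kb on X and 7.52 kb on 3R, against 2.42 kb, 3.87 kb, 3.57 kb and 3.61 kb. Islands of at least 10 kb made up 3 of the 50 on the 2L, 3L and X ends (6.00%). They were 2 of 23 on 2L (8.70%), none of 18 on 3L and 1 of 9 on X (11.1%). In the rest of these arms they made up 15.3%, 17.8% and 13.4%, so the share on X was close to its rest. The counts at the ends are small. On the 3R end 10 of 51 reached 10 kb (19.6%), close to the 19.2% of the rest of 3R.

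The islands nearest the ends of the sequences were single clusters in each replicate on 3L, X and 2L. On 3L the island from 24529639 to 24531807 (2169 bp) lay 11.75 kb from the end and 797.0 kb from the next island. Its score was 0.77 in replicate 1 and 0.51 in replicate 2, and the replicates had 2030 bp in common. On X the island from 22414112 to 22416110 (1999 bp) lay 6.72 kb from the end, with scores of 0.44 and 0.49 that ranked 4264 and 3938 in their lists. On 2L the innermost island, from 22873821 to 22876005 (2185 bp), lay 135.54 kb from the end. On 3R an island of 7016 bp, from 54 to 7069, began 0.053 kb from the first base and held 2 clusters of each replicate.

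The islands with most bases in common were spread over the outer part of the 2L and 3L ends. On 2L the first was 21023154 to 21041765 (18612 bp), with 16850 bp in common and scores of 0.91 and 0.71. Next came 21238415 to 21250326 (11912 bp, 8589 bp in common) and 21014954 to 21020810 (5857 bp, 4106 bp in common), the last of which lay 2.34 kb from the first. On 3L they were 22659037 to 22667476 (8440 bp, 7185 bp in common), 22828569 to 22835160 (6592 bp, 5542 bp) and 22870570 to 22873192 (2623 bp, 2222 bp). All 6 lay at least 1670.4 kb from the end of the sequence.

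On X the leading islands lay at very different distances. The island from 22247095 to 22260100 (13006 bp) lay 162.73 kb from the end, held 3 clusters of each replicate and had 8444 bp in common. It was the main part of the patch at 100 to 200 kb. The other two were 20924213 to 20932017 (7805 bp, 6947 bp in common), 1490.8 kb from the end, and 21912236 to 21916581 (4346 bp, 2241 bp in common), 506.25 kb from it. The scores of the 3 islands lay between 0.67 and 0.82 in replicate 1 and between 0.71 and 0.72 in replicate 2.

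The leading islands of the 3R end formed the broad region named above. Between 797024 and 952922, a span of 155.9 kb, 4 islands had 134456 bp in common, which was 45.4% of all bases common to both replicates on the 3R end. The longest ran from 898392 to 952922 (54531 bp) and was 1 cluster in replicate 1 and 5 in replicate 2, with scores of 0.99 and 1.05. The island from 834267 to 872472 (38206 bp) was 1 cluster in each replicate, and the replicates had 98.3% of its covered bases in common. That from 797024 to 828435 (31412 bp) was also 1 cluster in each, with 93.6% in common. In replicate 1 these 3 islands ranked 79, 59 and 90 by score among 4370 clusters, and in replicate 2 they ranked 24, 185 and 416 among 4910.

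**Figure D4:**
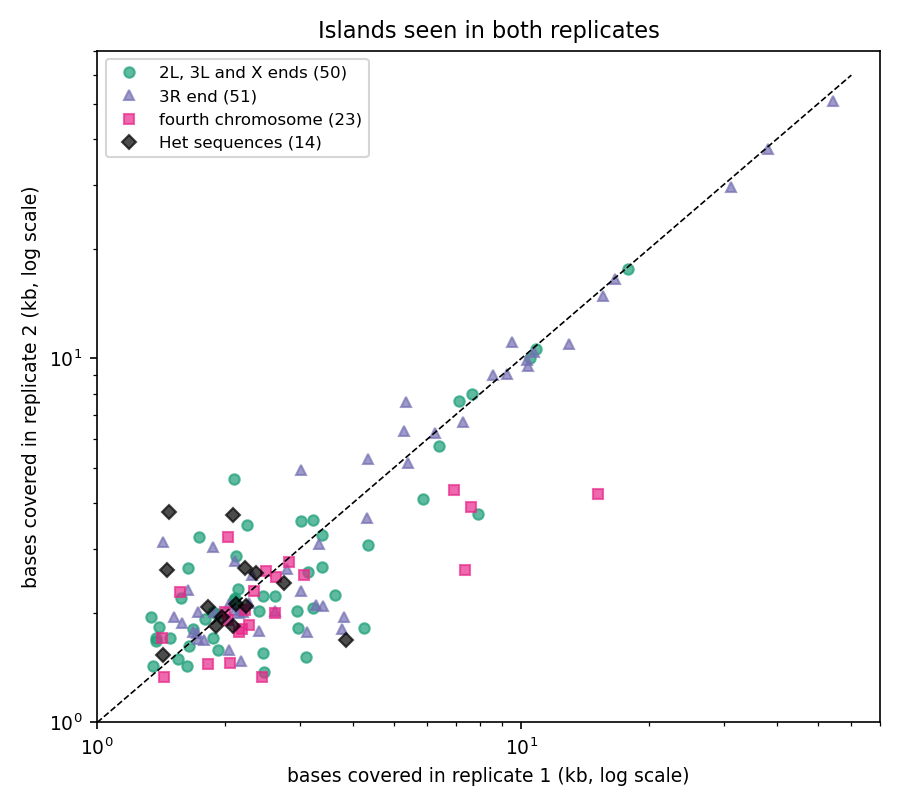
Each point is 1 of 138 islands, with the bases covered by replicate 1 (kb, log scale) on the horizontal and by replicate 2 (kb, log scale) on the vertical axis, and equality dashed. Points of the 3R end reach above 50 kb close to the line, the 14 scaffold islands stay under 4 kb, and on the fourth chromosome the longest island lies far below the line with 15187 bp in replicate 1 and 4245 bp in replicate 2.

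On the fourth chromosome the replicates differed both in which clusters were called and in their width. Its covered share was 8.69% in replicate 1, 4.66% in replicate 2 and 12.9% in the combined list, a mean of 6.67% ± 2.85 (SD, n = 2). The covered share was 1.86 times as high in replicate 1, whereas that ratio lay between 0.944 and 1.19 on the 4 arm ends. Of 45 clusters of replicate 1, 24 overlapped a cluster of replicate 2 (53.3%, 95% exact interval 37.9 to 68.3), and of 31 clusters of replicate 2, 25 overlapped one of replicate 1 (80.6%, 62.5 to 92.6). The same shares were 57.8% and 59.2% on the 2L end, and 71.0% and 73.2% over the whole series. Replicate 1 covered 54432 bp more of the chromosome than replicate 2, of which 29652 bp lay outside islands and 24780 bp within them. Of the 23 islands, which by definition were called in both replicates, 21 were 1 cluster in each, and 18 were wider in replicate 1. This was not particular to the fourth chromosome. Islands were wider in replicate 1 in 17 of 23 on the 2L end and 33 of 51 on the 3R end. On the 3L end 8 of 18 were, and on the X end 2 of 9. In the islands of the fourth chromosome the common bases were 87.9% of what replicate 2 covered and 60.3% of what replicate 1 covered. No cluster of replicate 2 was longer than 3910 bp, while the longest of replicate 1 measured 10932 bp.

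The widest difference lay in 1 stretch. At 500 to 600 kb from the start, replicate 1 covered 36.9% and replicate 2 covered 12.8%, which were 31.4% and 20.3% of their covered bases on the chromosome. Without this stretch the shares were 6.44% and 4.01%, and replicate 1 still covered 1.60 times as much. The island from 506636 to 522292 (15657 bp) was covered to 97.0% by replicate 1 and to 27.1% by replicate 2. Beside it, 522297 to 529669 (7373 bp) was covered to 100% and 35.6%, and 573735 to 581335 (7601 bp) to 100% and 51.4%. The remaining leading islands were 75994 to 82917 (6924 bp, 4347 bp in common) and 194422 to 197333 (2912 bp, 2671 bp in common).

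Both ends of the fourth chromosome sequence lacked clusters. The first cluster began 76.0 kb from the start in replicate 1 and 77.4 kb in replicate 2, and 63.5 kb in the combined list. At the far end, 114.77 kb from 1237092 to 1351857 held no cluster of any list. From 800 to 900 kb neither replicate had a cluster, and the combined list covered 4.00%. The first 100 kb were covered to 12.8% and 6.36%, and the next 100 kb to 12.8% and 9.59%, above the share of the whole chromosome in each replicate.

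**Figure D5:**
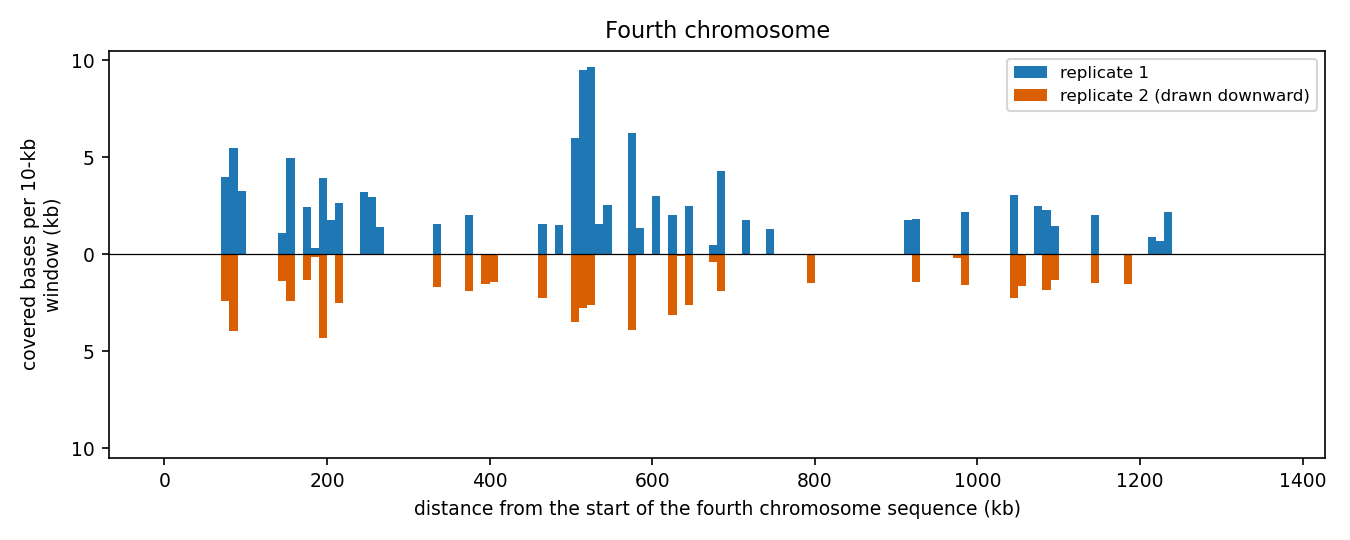
Covered bases (kb) of each 10-kb window along the fourth chromosome against distance (kb) from the start of its sequence, with replicate 1 upward and replicate 2 downward. Of 49 windows with a bar, 25 have bars of both replicates, and around 500 kb those of replicate 1 come near to the full window while those of replicate 2 do not.

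On the heterochromatic scaffolds clusters were few, and most of those of replicate 1 were found again in replicate 2. The 4 scaffolds were covered to 0.562% in replicate 1, 0.825% in replicate 2 and 1.35% in the combined list. Of 15 clusters of replicate 1, 14 overlapped a cluster of replicate 2 (93.3%, 95% exact Clopper-Pearson interval 68.0 to 99.8), against 71.0% of all clusters of replicate 1. In the other direction 15 of 23 did (65.2%, 42.7 to 83.6), against 73.2% of all. On the 2L, 3L and X ends these shares were 60.6% (50.0 to 70.6) and 65.2% (54.6 to 74.8). The intervals treat clusters as independent and cover counting error only.

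On 3LHet 8 islands lay between 409747 and 2399198, all of them 1 cluster in each replicate. The first pair was 409747 to 411794 (2048 bp) and 457198 to 460962 (3765 bp), and the second was 591777 to 594095 (2319 bp) and 605900 to 607429 (1530 bp). After a stretch of 787.69 kb without a cluster in either replicate came 1395121 to 1398983 (3863 bp), then 1568422 to 1571185 (2764 bp), 2190058 to 2192775 (2718 bp) and 2397118 to 2399198 (2081 bp). The island at 1568422 had the highest scores of the scaffold, 0.70 in replicate 1 and 0.64 in replicate 2. Replicate 2 had 4 more clusters here, of which 2 lay between the islands of the second pair.

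On 3RHet all 4 islands lay after the first 1704.8 kb, in which neither replicate had a cluster. The island from 1767473 to 1770226 (2754 bp) had the highest scores of all scaffold islands, 1.00 in replicate 1 and 0.95 in replicate 2. It ranked 71 by score in both lists, of 4370 and 4910 clusters. The others were 1807191 to 1809280 (2090 bp, scores 0.60 and 0.48), 1822732 to 1824791 (2060 bp, 0.48 and 0.44) and 2471051 to 2473287 (2237 bp, 0.54 and 0.56).

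On 2LHet 2 islands stood 134.55 kb apart. That from 30783 to 33433 (2651 bp) had scores of 0.69 and 0.71 and 2231 bp in common. That from 167981 to 171978 (3998 bp) was 1 cluster of 1476 bp in replicate 1 and 2 clusters with 3779 bp in replicate 2, and 1257 bp were common. The last 196.89 kb of the scaffold, 53.4% of its length, held no cluster of any list.

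XHet had no island. Replicate 1 had 1 cluster, from 51582 to 53441, and replicate 2 had 2, from 56342 to 57985 and from 60355 to 61694, so the nearest clusters of the replicates did not touch. The combined list held 8 clusters there, all within the first 72114 bp, and covered 6.67% of the scaffold. Of these 8, 5 overlapped neither replicate (62.5%), against 61.2% of the combined clusters of the X end and 44.3% of all combined clusters. The last 142.42 kb held no cluster of either replicate, and 2 combined clusters reached into them.

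Lengths and scores of clusters were compared with those of the rest of the arm within each list. Median lengths at the 2L, 3L and X ends lay between 1590.5 and 1934 bp in replicate 1 and between 1814 and 1973 bp in replicate 2, below the rest of the same arm in each case. On the 3R end the median length was 2192.5 bp in replicate 1, above the 2152 bp of the rest, and 2032 bp in replicate 2, below its 2138 bp. Median scores there were 0.55, 0.57 and 0.65 in replicate 1, against 0.59, 0.59 and 0.67 in the rest of 2L, 3L and X. In replicate 2 they were 0.52, 0.51 and 0.59, against 0.55, 0.55 and 0.62. On the 3R end the median scores were 0.59 and 0.53, against 0.60 and 0.56. The scores are the authors' values with no stated scale, so only their order within a list can be read.

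Genes and bases at these positions are not given, because no annotation or genome of this build was used here.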

How the data were processed

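Enriched regions of 2 ChIP-seq libraries for H3K18ac were examined, each with an input of the same replicate number per the labels. The authors deposited, for each region, a start, an end and a score without a stated scale. The genome build is FlyBase r5, per the file headers, and Bowtie 0.12.7 is named in the submitters' processing notes. The region caller, its threshold and the joining of replicates were not given in the sources used here. Read depth is unknown.

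Covered bases were counted in 10-kb windows laid from the centromere-proximal end of each arm, and islands were chained as described in the results. Clusters belonged to a sequence by their midpoint. Python 3.11.15, numpy 2.4.6, scipy 1.17.1, pandas 2.3.3 and matplotlib 3.10.9 were used. On 20 simulated arms the fall-off was found within 160 kb of its true place, and 1000 of 1000 planted islands were recovered. The simulated arms had a sharp edge with no cluster inside it, unlike the partly covered arms here. Planted islands were trimmed copies of clusters, and the second list held no other cluster. Their full recovery was therefore fixed in advance and checks the code only. The members and lists were chosen with earlier results of these data known. Named regions were all scaffold islands, the 5 islands of the fourth chromosome and the 3 of each arm end with most common bases, the innermost island of each arm end and the longest stretches without a cluster; other stretches named were chosen after their values were seen. The inputs were not analysed on their own.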

Additional observations from a re-analysis of the deposited data

Results flagged for a closer look

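The proximal 2 Mb of 3R differed in direction from those of 2L, 3L and X: the ratio of their covered share to that of the rest of the arm was 1.37 on 3R and below 1 on the other arms in both replicates. The difference between arms was not tested. Without the 200 kb at 800 to 1000 kb the ratio on 3R was 0.955.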

How the results depend on the processing

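Of 82 alternative values for the main results, 44 were labelled unchanged, 37 moved and 1 reversed. Unchanged meant within 1 SD of the mean of the replicates, for counts within 1.5 times, and for shares of windows within the 95% exact interval. That interval treats neighbouring windows as independent, which they are not. The 44 include the ratios, covered shares and fall-off distances with 1 replicate left out. Their label was fixed in advance, as described below, so the 44 overstate stability. The reversed value was the ratio of the 3R end to the rest of 3R without 800 to 1000 kb, 0.955, chosen after seeing the data. When clusters below their list's median score were dropped, the ratios were 0.299 (2L), 0.0995 (3L) and 0.160 (X), coverage was 3.24% on the fourth chromosome and 0.229% on the scaffolds, the fall-off lay at 1280 kb (2L) and 1690 kb (3L), 5.19% of windows held both replicates and 48 islands remained in place of 138; fewer clusters then enter. With a proximal length of 1 Mb and 500 kb the ratios were 0.210 and 0.163 (2L), 0.0640 and 0.0264 (3L), 0.237 and 0.361 (X), and 1.96 and 1.14 (3R). Fall-off distances on 2L, 3L and X were 520, 1570 and 70 kb with running stretches of 100 kb, 1085, 1385 and 2040 kb with 500 kb, and 1280, 1520 and 935 kb at a threshold of 75%; at 25% they were 395 kb (2L) and 1235 kb (3L). By the largest distance at which the accumulated share stayed below 50% of the rest, an alternative chosen after seeing the data, they were 2015, 2530 and 3190 kb. On 3R the distance was 0 kb under every alternative run. Windows of 5 and 20 kb gave 7.99% and 17.8% of windows with both replicates. Leaving out 1 replicate, so that the other was enough, gave 14.5% to 15.0% of windows and 228 to 231 clusters in place of islands. With 2 replicates each lies within 1 SD of their mean, so leaving 1 out could not move the other values: the ratios ran from 0.427 to 0.448 (2L), 0.179 to 0.186 (3L), 0.166 to 0.195 (X) and 1.35 to 1.39 (3R). The cause of these moves was not tested. No paired analysis was possible because input libraries come without values here. Unknown depth limits every statement on clusters not called.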

Other observations

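The highest score of the whole combined list belonged to a cluster of the 3R end that neither replicate list held. It ran from 1984256 to 1985270 (1015 bp) with a combined score of 3.61. Further short clusters with high scores, also absent from both replicate lists, were 2L from 22836970 to 22838086 (1117 bp, score 1.85, rank 11), 3RHet from 66048 to 67058 (1011 bp, 1.39, rank 16), 3L from 23664462 to 23665930 (1469 bp, 1.07, rank 26) and 3RHet from 2162312 to 2163332 (1021 bp, 1.07, rank 29). Among the 100 highest-scoring combined clusters of the series 21 overlapped neither replicate, of which 19 were under 1500 bp. Of the 11 that lay in the sequences described here, these 5 were in neither replicate and 6 were in both. They are named because of their scores, chosen after these were seen.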
